A study of Mus musculus with 35 samples.

Results

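The genes described here are 59 mouse genes of the cell division cycle, 21 of S phase and its onset and 38 of mitosis, taken by symbol from a table of read counts for 57186 genes in whole lung. The list holds known cell cycle genes and its rule uses symbols, not measured values, but it was chosen with earlier results of these data known. Each of the 59 symbols matched 1 gene of the table, and all 59 had enough reads to be among the 20606 genes tested. In the sparsest member, Ndc80, the libraries held 4 to 41 reads, so that its values carry more counting error than those of the others.

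The 35 libraries were made from whole lungs of mice that the series design gives as 14 days old. The control genotype (C) is RORaf/f, in which the Rora gene is floxed. The knockout (KO), RORaf/fIl7riCre, also makes Cre recombinase under the control of Il7r. Cre removes the floxed part in cells that express Il7r or descend from such cells, mainly lymphoid cells. Both genotypes were left untreated or given naphthalene, a compound that club cells of the airway turn into a toxic product, and both arms carry the day labels 2, 5 and 7. This gives 12 groups of 3 libraries, except the naphthalene-treated knockout at day 7, which has 2. In treated mice the day label is the number of days after naphthalene. For untreated mice the design text explains only the label of day 2, and no separate age is given for any day label. The control label names no Cre, so loss of RORa and the presence of Cre cannot be told apart. Nothing says that the libraries of a group came from separate litters or experiments, so the p-values measure the spread between these libraries.

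A dividing cell first copies its DNA and then separates the copies. E2F transcription factors switch on the genes of DNA replication at the start of S phase. MCM proteins, loaded by CDC6 and CDT1, then open the DNA, and PCNA holds the polymerases on it. Later, cyclin B with CDK1 drives mitosis, in which kinetochores attach chromosomes to the spindle, and the anaphase-promoting complex with its partner UBE2C ends it by marking cyclins for destruction. In the lung these genes are used by many cell types, from growing alveoli in young animals to airway cells that replace those lost to naphthalene.

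The S phase and mitosis sets held some words in their promoters at different shares. Stretches are given here for 3 mitotic members and 3 S phase members as examples. Promoter sequence came from RefSeq (GRCm38.p6, which is not the build named for the counts) and was found for 50 of the 59 members. Each stretch is the 150 bases ending just before the annotated transcript start, read 5′ to 3′ on the gene's own strand. Capitals mark, on either strand, the cell cycle homology region (CHR) word TTTGAA, the E2F words TTGGCGC and TTCCCGC, and the CCAAT box.
Ube2c: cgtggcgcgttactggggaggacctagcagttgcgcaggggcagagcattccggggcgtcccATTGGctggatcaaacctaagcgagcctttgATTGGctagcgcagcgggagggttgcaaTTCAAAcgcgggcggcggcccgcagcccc
Cdk1: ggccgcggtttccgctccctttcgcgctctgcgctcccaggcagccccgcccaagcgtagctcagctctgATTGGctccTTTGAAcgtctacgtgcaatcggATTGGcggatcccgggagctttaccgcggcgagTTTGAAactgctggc
Top2a: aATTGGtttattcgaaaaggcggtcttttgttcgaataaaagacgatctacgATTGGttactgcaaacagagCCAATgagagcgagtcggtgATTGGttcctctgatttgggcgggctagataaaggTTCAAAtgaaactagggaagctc
Mcm5: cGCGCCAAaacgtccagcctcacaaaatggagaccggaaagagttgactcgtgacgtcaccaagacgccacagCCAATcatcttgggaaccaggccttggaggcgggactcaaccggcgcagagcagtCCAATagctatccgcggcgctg
Uhrf1: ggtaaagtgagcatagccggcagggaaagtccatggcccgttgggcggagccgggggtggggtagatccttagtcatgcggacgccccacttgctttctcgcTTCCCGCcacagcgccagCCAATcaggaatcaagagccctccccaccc
E2f1: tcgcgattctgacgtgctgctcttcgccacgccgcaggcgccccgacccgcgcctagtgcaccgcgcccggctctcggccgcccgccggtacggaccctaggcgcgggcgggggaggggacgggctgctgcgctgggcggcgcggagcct

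These stretches lie at chr2:164769779-164769928 (Ube2c, forward strand), chr10:69352913-69353062 (Cdk1, reverse), chr11:99024190-99024339 (Top2a, reverse), chr8:75109359-75109508 (Mcm5, forward), chr17:56303187-56303336 (Uhrf1, forward) and chr2:154569427-154569576 (E2f1, reverse). In the stretches shown, the 3 mitotic members each hold a CHR word near the start and at least 1 CCAAT box, whereas Mcm5 and Uhrf1 hold an E2F word and E2f1 holds none of the words. Uhrf1 has another annotated start, whose stretch holds CCAAT boxes and no E2F word. In the shares that follow, a gene with several starts (Ect2, Mcm7, Prc1 and Uhrf1) counts if any of its windows holds the word. Over the whole window of 300 bases around the start, the CHR word was present in 24 of 32 mitotic genes (75.0%) and in 3 of 18 S phase genes (16.7%), against 20.2% of all 27025 genes with a window. Either E2F word was present in 4 of 32 mitotic genes (12.5%) and in 10 of 18 S phase genes (55.6%), against 7.79% of all genes. CCAAT was present in 24 of 32 mitotic genes (75.0%) and 11 of 18 S phase genes (61.1%), against 41.1% of all genes. The related word TTTAAA was present in 28% of the matched members and 14.9% of all genes. Of the members that passed as lower at day 2 after naphthalene (below), Cenpa, Cenpf, Kif4, Kif2c and Ube2c held a CHR word in the window. Mcm3 held an E2F word, Mcm2 held a CHR word and no E2F word, and Nusap1 held none of the words. A match is a description of the letters in the window, not a bound site.

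Totals ran from 10.7 M reads, in untreated knockout replicate 1 of day 2, to 21.06 M reads per library, with a median of 16.16 M. Library names carry a letter whose meaning is not stated. All 6 libraries of day 2 after naphthalene have the letter a and none of the untreated ones has it. Of the untreated libraries of day 2, 4 have the letter k and 2 (control replicate 3 and knockout replicate 1) the letter n. No letter is shared between the arms at day 5 either, so there the effects of treatment and of whatever the letter marks cannot be told apart. The 11 libraries of day 7 all have the letter p, so that the comparison at day 7 lies within 1 letter, but no letter is shared between untreated libraries of different day labels. Whole-lung Rora does not check the knockout labels, since the deletion is meant for lymphoid cells: in untreated lungs of day 2 it was 36.3 ± 6.0 CPM (reads per 1 M reads of a library's scaled total) in controls and 46.7 ± 14.5 CPM in knockouts (SD, n = 3 each). At day 5 after naphthalene it was 39.4 and 35.1 CPM, the 1 pair of groups of 6 in which the knockout mean was lower. Mean Il7r was lower in knockouts than in controls in untreated lungs of day 5 (4.91 against 10.6 CPM) and day 7 (4.19 against 8.59 CPM). After naphthalene it was lower in knockouts at day 2 (4.82 against 8.44 CPM) and day 7 (5.68 against 7.67 CPM). It was higher in knockouts in untreated lungs of day 2 (6.17 against 4.97 CPM) and at day 5 after naphthalene (6.37 against 3.78 CPM). Of 5 club cell genes 3 were lower at day 2, and 1 at days 5 and 7, Scgb1a1, the club cell secretory protein, with changes of -3.77, -2.15 and -1.80 on the log2 scale at days 2, 5 and 7. Scgb3a2, a second secretoglobin, was lower at day 2 (-2.26) but at 0.73 and 0.81 at days 5 and 7, without passing.

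At day 2 after naphthalene 8 of the 59 genes passed the test as lower and 0 as higher, against 4.3% and 5.6% of all genes. In untreated lungs labelled day 7, against those labelled day 5, 19 passed as higher and 0 as lower, against 10.2% and 11.4% of all genes. At days 5 and 7 after naphthalene 0 of 59 passed in either direction. As a summary, the mean over the 59 members of log2 CPM (prior count 2) was 2.81 ± 0.24 in untreated lungs of day 2, 2.47 ± 0.17 at day 5 and 2.96 ± 0.21 at day 7 (SD, n = 6 each). In treated lungs it was 2.37 ± 0.19 at day 2 (n = 6), 2.53 ± 0.11 at day 5 (n = 6) and 2.91 ± 0.75 at day 7 (n = 5). The treated libraries of day 7 spread far more than any other arm, from 2.19 to 3.91. By group, the means ran from 2.27 ± 0.11 in treated controls of day 2 to 3.12 in treated knockouts of day 7 (n = 2), and untreated controls of day 7 were at 3.07 ± 0.15.

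**Figure D1:**
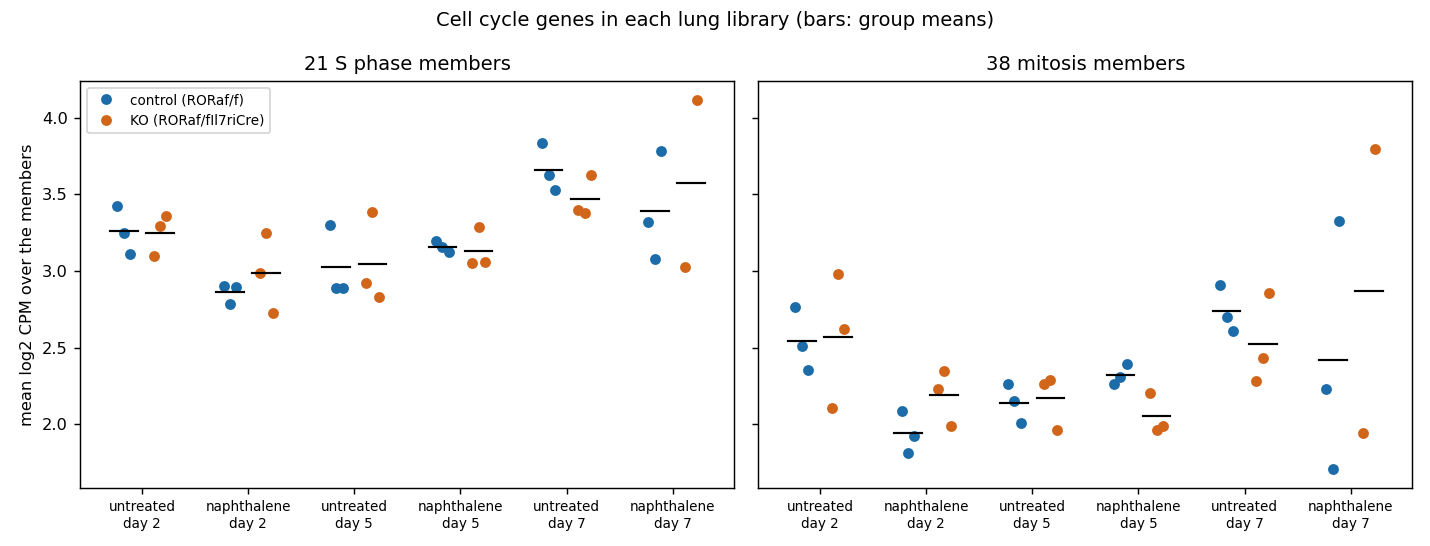
Mean log2 CPM of the 21 S phase members (left) and the 38 mitosis members (right) in each of the 35 libraries, by treatment and day label on the horizontal axis. Blue points are control libraries, orange points knockout libraries and bars the group means; the treated libraries of day 2 sit low in both panels and those of day 7 spread widely.

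At day 2 after naphthalene, against untreated lungs of the same day label and averaged over the genotypes, some genes of the kinetochore, the spindle, the anaphase-promoting complex and the replicative helicase were lower. The 8 that passed edgeR's quasi-likelihood test at an adjusted p under 0.05 (Benjamini-Hochberg over all genes tested) were Cenpa, Cenpf, Nusap1, Kif4, Kif2c, Ube2c, Mcm2 and Mcm3. Of all genes tested, 4.3% passed as lower, 5.6% as higher and 9.9% in either direction, against 8 lower (of 59) and 0 higher here. The change was below 0 for 54 of the 59, with a median of -0.50 on the log2 scale, whereas 11389 of the 20606 genes tested were below 0, with a median of -0.04. Because the samples are whole lungs, fewer dividing cells and less of these transcripts per cell cannot be told apart.

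Among kinetochore genes, Cenpa, the histone H3 variant that marks the centromere, was at 22.8 to 31.6 CPM (median 27.2) in the 6 untreated libraries and at 12.2 to 18.1 CPM (median 15.3) in the 6 treated ones. The groups did not overlap in either genotype, and the change was -0.85 ± 0.17 on the log2 scale (SE, edgeR adjusted p = 0.000572). Cenpf, a large protein of the outer kinetochore, was at 2.92 to 8.10 CPM (median 4.26) untreated and 1.32 to 3.07 CPM (median 1.87) treated, a change of -1.24 ± 0.36 (edgeR adjusted p = 0.0244). The 2 ranges touched only through the lowest untreated knockout and the highest treated knockout library. Of the other 4 kinetochore genes (Cenpe, Ndc80, Nuf2 and Spc25) none passed, and Spc25 was slightly above 0, at 0.10.

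Of 11 genes of the spindle and of cytokinesis, 3 passed. Nusap1, which bundles microtubules around chromosomes, was at 5.39 to 7.93 CPM (median 6.93) untreated and 3.43 to 4.99 CPM (median 4.04) treated, with no overlap (-0.77 ± 0.23, edgeR adjusted p = 0.0266). Kif4, a motor on chromosome arms, was at 2.27 to 3.87 CPM untreated and 1.01 to 3.18 CPM treated, so that its groups overlapped (-0.89 ± 0.27, edgeR adjusted p = 0.0319). Kif2c, which takes microtubules apart at the kinetochore, was at 1.81 to 3.85 CPM untreated and 0.824 to 1.98 CPM treated (-0.97 ± 0.31, edgeR adjusted p = 0.040). The other 8 (Kif11, Kif20a, Kif23, Tpx2, Prc1, Hmmr, Ect2 and Anln) did not pass. Kif23, a motor of the central spindle, was at 5.58 to 9.09 CPM untreated and 7.17 to 9.95 CPM treated (0.10 ± 0.21), and the cytokinesis genes Ect2 and Anln were also above 0, at 0.25 and 0.16.

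Ube2c, the ubiquitin-conjugating enzyme of the anaphase-promoting complex, was at 15, 16.5 and 13 CPM in untreated controls and at 8.35, 6.21 and 7.55 CPM in treated controls. In knockouts it was at 5.31, 23.4 and 18.8 CPM untreated and 6.70, 9.80 and 6.44 CPM treated. Replicate 1 of the untreated knockouts thus lay below every treated library, while the other 5 untreated libraries lay above them all; the change was -1.03 ± 0.24 (edgeR adjusted p = 0.00445). Its companions Cdc20, an activator of the complex, and Cdca3, a trigger of mitotic entry, did not pass.

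No gene of the cyclins and CDK1, of the mitotic kinases and checkpoint, or of the general markers passed at day 2, although all 18 changes were below 0. The spread of each gene was estimated over all 12 groups, the widely spread treated libraries of day 7 among them. More members passed in a fit of the day 2 groups alone (given below), and the part of the day 7 spread in this was not tested. Cdk1 was at 4.25 to 14.5 CPM (median 10.0) untreated and 3.81 to 7.52 CPM (median 5.42) treated (-0.84 ± 0.31, edgeR adjusted p = 0.0816). Bub1, a kinase of the spindle checkpoint, was at 1.80 to 3.03 CPM untreated and 0.957 to 2.11 CPM treated (-0.78, edgeR adjusted p = 0.0645). Treated knockouts, at 1.99, 2.11 and 2.11 CPM, reached into the untreated range, and treated controls, at 0.957, 1.04 and 1.08 CPM, did not. Mad2l1, the checkpoint protein MAD2, was at 9.54 to 13.5 CPM untreated and 7.23 to 11.1 CPM treated (-0.38 ± 0.22, edgeR adjusted p = 0.32). Top2a, the topoisomerase that untangles sister chromosomes, was at 9.75 to 24.1 CPM untreated and 5.88 to 15.5 CPM treated (-0.79 ± 0.31, edgeR adjusted p = 0.109). Mki67, the Ki-67 protein, was at 8.61 to 14.3 and 5.71 to 11.1 CPM (-0.57 ± 0.31, edgeR adjusted p = 0.283). Both markers overlapped between treated and untreated libraries. Ccne1, the G1/S cyclin E1, did not pass (-0.54 ± 0.21, edgeR adjusted p = 0.103), although its treated libraries (1.05 to 2.55 CPM) lay below all untreated ones (2.66 to 3.32 CPM).

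In the S phase set, 2 subunits of the helicase passed. Mcm3 was at 27.5, 22.3 and 24.9 CPM in untreated controls and 15.4, 14.2 and 16.4 CPM in treated controls, a clear separation. In knockouts it was at 20.01, 25.9 and 22.8 CPM untreated and 16.1, 19.97 and 13.7 CPM treated, where the highest treated library came just below the lowest untreated one (both genotypes -0.58 ± 0.15, edgeR adjusted p = 0.00897). Mcm2 was at 13.7 to 26.5 CPM (median 22) untreated and 10.4 to 20.3 CPM (median 11.4) treated, with overlap (-0.64 ± 0.21, edgeR adjusted p = 0.0441). Of the other 11 genes of origin licensing and replication (Mcm4, Mcm5, Mcm6, Mcm7, Cdc45, Cdc6, Cdt1, Gins2, Pcna, Uhrf1 and Chek1) none passed and all 11 were below 0. Pcna was at 45.0 to 67.7 CPM untreated and 39.7 to 56.7 CPM treated (-0.24 ± 0.15, edgeR adjusted p = 0.37). Of the 4 transcription factors (E2f1, E2f8, Foxm1 and Mybl2), all were below 0 and none passed: E2f1 was at 7.88 to 19.3 CPM untreated and 7.09 to 13.2 CPM treated (-0.50 ± 0.20, edgeR adjusted p = 0.126), and the repressor E2f8 at 2.64 to 4.82 and 1.59 to 2.89 CPM (-0.73 ± 0.28, edgeR adjusted p = 0.101). Foxm1 and Mybl2, known for driving mitotic genes, were counted with the 38 mitosis members, and the E cyclins Ccne1 and Ccne2 with the 21 S phase members. Genes that supply nucleotides were the least shifted set, with a median of -0.13 for Rrm1, Rrm2, Tyms and Tk1. Rrm1, the large subunit of ribonucleotide reductase, was at 14.3 to 25.6 CPM untreated and 16.5 to 22.3 CPM treated (-0.03 ± 0.14, edgeR adjusted p = 0.934).

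**Figure D2:**
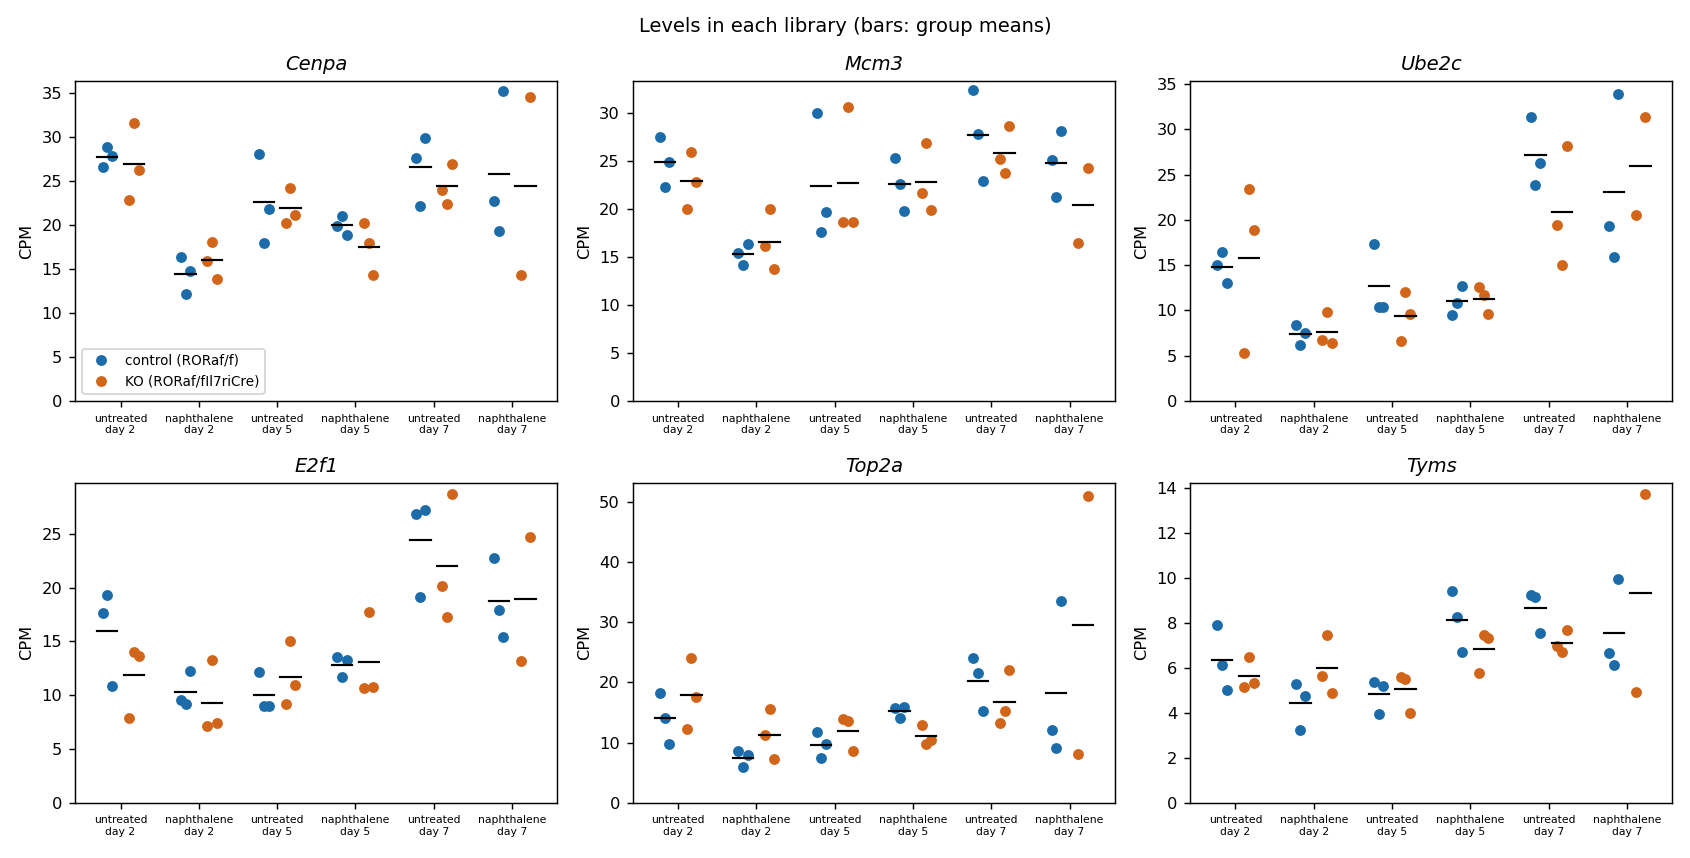
CPM (vertical axes) of Cenpa, Mcm3, Ube2c, E2f1, Top2a and Tyms in each library, by treatment and day label, with control libraries in blue, knockout libraries in orange and bars at the group means. Treated libraries of day 2 lie below untreated ones for Cenpa and Mcm3. Among untreated lungs, E2f1 and Ube2c are highest at day 7, and the treated libraries of day 7 lie wide apart for Top2a.

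The mitosis set had a median of -0.61 (34 of 38 below 0, 6 lower) and the S phase set a median of -0.35 (20 of 21 below 0, 2 lower); the difference between the sets was not tested. In 4 members, Cenpa, Nusap1, Mcm3 and Ccne1, the groups separated: they had all treated libraries below all untreated ones, against 1.47% of all genes tested, and 0 members had all above, against 3.05%. The count of 8 depended on single libraries. It was 3 without control replicate 1, 3 without knockout replicate 2, 4 without knockout replicate 3 and 14 without knockout replicate 1 among untreated libraries. Among treated libraries it was 5 without control replicate 1, 3 without control replicate 2, 4 without knockout replicate 1 and 3 without knockout replicate 3. Cenpa, Ube2c and Mcm3 passed in all 12 fits that left out 1 library, and the other 5 in 4 to 6 of them.

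Within controls alone, 1 of 59 passed at day 2, Cenpa, at 26.6, 28.9 and 27.8 CPM untreated and 16.3, 12.2 and 14.7 CPM treated (-0.94 ± 0.23, edgeR adjusted p = 0.0138). The call was lost without treated control replicate 2 and the count was 2 without treated control replicate 1. Of all genes 1.18% passed as lower, 2.57% as higher and 3.76% in either direction. Within knockouts 0 of 59 passed with edgeR, 5 had an unadjusted p under 0.05 and DESeq2 called 1; of all genes 0.747% passed as lower, 1.99% as higher and 2.74% in either direction. Without untreated knockout replicate 1, edgeR called 2 in knockouts. The member medians were -0.65 in controls and -0.37 in knockouts. Whether the effect differed by genotype was tested over the 3 days together, below.

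Cell markers also moved at day 2, and their part in the lower cell cycle transcripts was not tested. Of 8 genes of red cells and their precursors, 4 were lower and 0 higher, and their summed level was 2754 to 4077 CPM in untreated and 1409 to 2640 CPM in treated libraries, with no overlap. Slc4a1, the anion exchanger of the red cell membrane, was one of the 4 (-2.62 ± 0.34), and Klf1, a transcription factor of red cell precursors, was at 0.0886 to 0.496 CPM untreated and 0.0586 to 0.464 CPM treated. Of 6 B cell genes 3 were lower, with sums of 264 to 391 CPM untreated and 141 to 237 CPM treated. Of 6 macrophage genes 3 were higher, with sums of 110 to 163 CPM untreated and 323 to 509 CPM treated. Of 6 tested neutrophil genes 3 were higher, with overlapping sums of 32.4 to 234 and 72.1 to 345 CPM. Club cell sums were 7748 to 11750 CPM untreated and 2031 to 3330 CPM treated, 3 of 5 genes being lower. Of 6 basal cell genes 4 were higher, with sums of 2.21 to 3.65 CPM untreated and 4.99 to 10.2 CPM treated and no overlap. Sums of T cell, endothelial, alveolar type 2, fibroblast, multiciliated and heart muscle genes overlapped between the arms. Single genes of these lists still passed: 1 of 6 endothelial, 1 of 6 fibroblast and 1 of 6 heart muscle genes were lower. Of 7 multiciliated genes 4 were lower and 1 higher, and 0 of 6 T cell and 0 of 6 alveolar type 2 genes passed. Of 8 thymocyte genes 4 were tested and 1 was lower, the sums overlapped, and Ptcra was at 0 in all 6 untreated libraries. Mitochondrial transcripts made up 0.752% to 1.53% of reads in untreated and 1.63% to 2.57% in treated libraries.

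At day 5 after naphthalene none of the 59 genes passed with edgeR, 3 had an unadjusted p under 0.05, and DESeq2 called 1, Tyms. Of all genes 4.34% passed as higher, 2.82% as lower and 7.16% in either direction. The members were spread around 0, with 38 above it and a median of 0.07. Without untreated control replicate 3 edgeR called 2 members, and without treated knockout replicate 1 it called 3.

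Tyms, the thymidylate synthase of DNA precursor supply, was at 5.38, 3.93 and 5.17 CPM in untreated controls and 9.42, 8.25 and 6.71 CPM in treated controls. In knockouts it was at 5.59, 5.53 and 4.00 CPM untreated and 5.76, 7.49 and 7.33 CPM treated. Every treated library thus lay above every untreated one, by a small margin in knockouts (0.60 ± 0.20, edgeR adjusted p = 0.0566). Aurka, the kinase of spindle poles, showed the same order, at 3.51 to 5.85 CPM untreated and 6.12 to 7.70 CPM treated (0.41 ± 0.18, edgeR adjusted p = 0.139), and so did Cdca3, at 2.82 to 4.44 and 4.62 to 6.69 CPM. These 3 of 59 compare with 1.74% of all genes whose treated libraries all lay higher; 0 members lay all lower, against 0.767% of genes.

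The smallest p below 0 at day 5 was that of Cenpe, the kinetochore motor, at 1.60 to 4.51 CPM untreated and 0.896 to 2.15 CPM treated (-0.82 ± 0.30, edgeR adjusted p = 0.0842). All 6 kinetochore genes were below 0 (median -0.39), whereas all 3 genes of the anaphase-promoting complex group were above 0 (median 0.53), none of them passing. Cenpa, which had fallen at day 2, was at 17.9 to 28.1 CPM untreated and 14.3 to 21.1 CPM treated at day 5. Within controls 0 of 59 passed (2 with an unadjusted p under 0.05, 0 by DESeq2), against 1.1% of genes higher, 1.29% lower and 2.39% in all. Within knockouts 0 passed (4 with an unadjusted p under 0.05, 0 by DESeq2), against 1.14% higher, 0.18% lower and 1.32% in all.

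At day 7 after naphthalene the treated lungs did not form 1 level, and 2 libraries decided the direction. Knockout replicate 2 had the highest value of all 35 libraries for 45 of the 59 members and lay above the range of the 6 untreated day 7 libraries for 50 of them. Control replicate 3 lay above that range for 39 and below it for 2, Kif20a and E2f1. The other 3 treated libraries lay low: control replicate 1 was below the range for 20 members and above it for 1, control replicate 2 below for 44 and above for 0, and knockout replicate 1 below for 42 and above for 1. As a median over members, the 5 libraries stood at 0.746, 0.578 and 1.45 times the untreated mean in controls and 0.627 and 2.01 times in knockouts.

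Single genes show the same split. Top2a was at 12.1, 9.07 and 33.6 CPM in treated controls and 8.07 and 51.0 CPM in treated knockouts, against 13.2 to 24 CPM in untreated lungs of day 7. Cdk1 was at 8.69, 6.42 and 18.8 CPM and at 4.94 and 29.2 CPM, against 6.04 to 14.7 CPM. Mki67 was at 7.91, 5.67 and 20.8 CPM and at 8.56 and 32.3 CPM, against 7.87 to 18.2 CPM. In each of the 3 genes the same 2 treated libraries lay above all untreated ones. Ccnb2, cyclin B2, had treated values of 4.67, 2.83 and 11.3 CPM in controls and 3.48 and 20.7 CPM in knockouts (untreated 4.25 to 8.41 CPM). E2f1 did not follow the split in controls: it was at 22.8, 17.9 and 15.4 CPM, where the library with the most mitotic transcripts was the lowest, and at 13.2 and 24.7 CPM in knockouts, against 17.3 to 28.7 CPM untreated. Mcm2 varied less, at 28.9, 23.4 and 34.3 CPM and at 25.1 and 30.5 CPM (untreated 25.8 to 41.4 CPM).

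**Figure D3:**
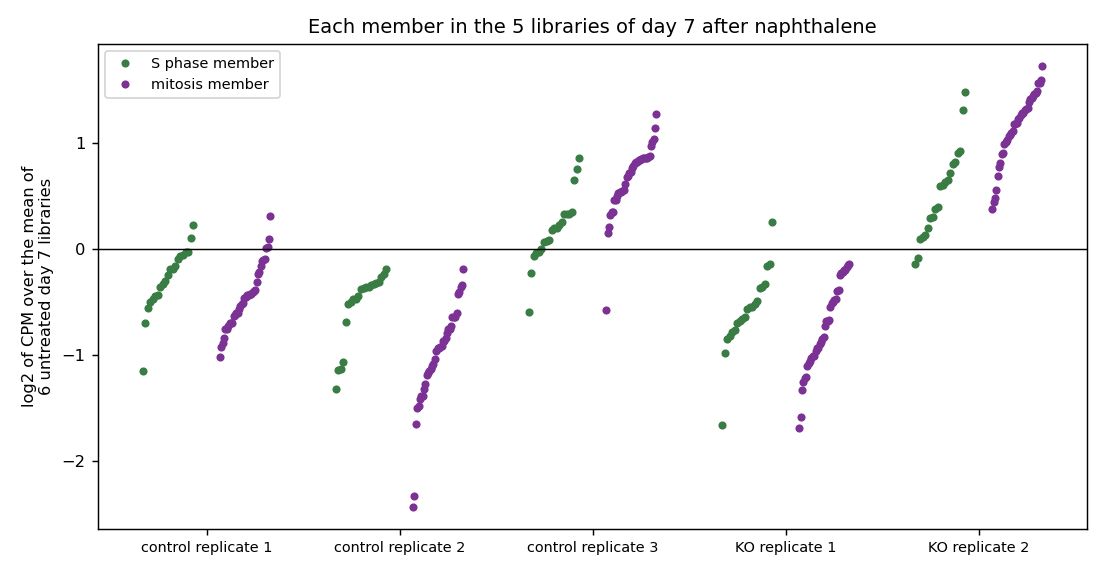
Log2 of the CPM of each member over its mean in the 6 untreated day 7 libraries (vertical axis), in each of the 5 libraries of day 7 after naphthalene; each point is a member, green for S phase and purple for mitosis. Control replicate 3 and knockout replicate 2 lie mostly above 0 and the other 3 libraries mostly below it, with mitosis members the more spread.

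Tested over both genotypes at day 7, 0 of 59 members passed with edgeR, 0 had an unadjusted p under 0.05 and DESeq2 called 0. Of all genes 0.335% passed as higher, 0.0388% as lower and 0.374% in either direction. The smallest p values were those of Mcm3 (-0.25 ± 0.16), Aurka (0.29 ± 0.19) and Ccnb2 (0.47 ± 0.32), each with an edgeR adjusted p of 1. The member median was 0.17, with 42 above 0. It became -0.38, with 57 below 0, without knockout replicate 2, and -0.08, with 48 below 0, without control replicate 3. It was 0.21, 0.31 and 0.45 without control replicates 1 and 2 and knockout replicate 1. No direction can therefore be read at day 7. In controls the median was -0.18 (49 below 0) and in knockouts 0.48 (50 above 0), and without the high library of each genotype it was -0.62 and -0.58. Within controls 0 passed (1 with an unadjusted p under 0.05, 0 by DESeq2) against 0.0291% of genes higher, 0.00971% lower and 0.0388% in all. Within knockouts 0 passed (4 with an unadjusted p under 0.05, 0 by DESeq2) against 0.0631% higher, 0.00971% lower and 0.0728% in all. No member had treated libraries all above or all below the untreated ones, against 0.98% and 0.136% of genes.

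The 2 high libraries also had the highest mitochondrial share of the 5 (1.66% in control replicate 3 and 1.75% in knockout replicate 2, against 1.07% to 1.15%), the lowest red cell sums (11524 and 7484 CPM, against 12331 to 17972 CPM) and the lowest club cell sums (6795 and 5870 CPM, of a range to 11299 CPM). They had the highest fibroblast sums as well (6083 and 7149 CPM, against 4789 to 5957 CPM). Their neutrophil sums were the lowest (55.4 and 66.4 CPM, against 84.4 to 408 CPM), as were their multiciliated and endothelial sums. The part of these values in the spread was not tested.

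In untreated lungs no member passed as lower between any 2 day labels. From day 2 to day 5 the change was below 0 for 53 of 59, with a median of -0.31 against 0.01 for all genes, but 0 passed with edgeR, 15 had an unadjusted p under 0.05 and DESeq2 called 0. Of all genes 0.379% passed as lower, 0.0971% as higher and 0.476% in either direction. The smallest p values were those of Ccnb1, cyclin B1, at 2.54 to 6.55 CPM at day 2 and 0.80 to 2.99 CPM at day 5 (-1.07 ± 0.34, edgeR adjusted p = 0.202), Cdca3 (-0.85 ± 0.29, 0.255) and Cdc20 (-0.99 ± 0.34, 0.268). No member separated the 2 arms in either direction, against 0.257% of genes lower and 0.121% higher.

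From day 5 to day 7, untreated lungs gained S phase and mitotic transcripts, E2f1 having the smallest p. The change was above 0 for 53 of 59, with a median of 0.48 against 0.01 for all genes; 19 passed as higher and 0 as lower. Of all genes 10.2% passed as higher, 11.4% as lower and 21.6% in either direction. All 21 S phase members were above 0 (10 passed, median 0.54), as were 32 of 38 mitosis members (9 passed, median 0.46).

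E2f1 was at 12.1, 8.99 and 9.01 CPM in untreated controls of day 5 and 26.9, 19.1 and 27.2 CPM at day 7. In knockouts it was at 9.17, 15 and 10.9 CPM and then 20.1, 17.3 and 28.7 CPM, so that no library of day 5 reached one of day 7 (1.10 ± 0.20, edgeR adjusted p = 0.000527). E2f8 was at 1.55 to 3.78 CPM at day 5 and 3.04 to 5.83 CPM at day 7 (0.99 ± 0.28, edgeR adjusted p = 0.0135). Of the 13 genes of origin licensing and replication, 7 passed. Uhrf1, which carries DNA methylation over to the new strand, was at 6.01 to 10.7 CPM (median 6.44) and 10.4 to 22.6 CPM (median 20.1), the lowest day 7 library being a knockout (1.22 ± 0.26, edgeR adjusted p = 0.00191). Mcm2 was at 12.2 to 28.6 CPM (median 15.2) and 25.8 to 41.4 CPM (median 31.2), with 2 libraries of day 5 inside the later range (0.81 ± 0.20, edgeR adjusted p = 0.00593). Gins2, of the replicative helicase complex, rose by 1.18 ± 0.34, Cdc6 by 0.72 ± 0.25, Mcm5 by 0.69 ± 0.23, Cdt1 by 0.54 ± 0.18 and Pcna by 0.45 ± 0.15 (edgeR adjusted p of 0.0127 to 0.0339). Tyms passed among the nucleotide genes, at 3.93 to 5.59 CPM and then 6.69 to 9.24 CPM without overlap (0.67 ± 0.20, edgeR adjusted p = 0.0152).

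Among mitotic genes, Ube2c was at 6.63 to 17.3 CPM (median 10.4) at day 5 and 15.1 to 31.3 CPM (median 25.1) at day 7 (1.12 ± 0.24, edgeR adjusted p = 0.00173). Only its highest library of day 5 and lowest library of day 7 crossed. Cdca3 rose by 1.00 ± 0.29, Ccnb1 by 1.10 ± 0.34 and Cdk1 by 0.96 ± 0.31. Of the kinases and checkpoint genes, Birc5, the survivin of the chromosomal passenger complex, rose by 0.96 ± 0.26, its kinase Aurkb by 1.06 ± 0.37, and Pbk, a kinase active in mitosis, by 1.42 ± 0.40. Birc5 was at 8.29, 6.75 and 7.25 CPM in controls of day 5 and 16.9, 14.4 and 14.5 CPM at day 7, and at 5.46, 6.97 and 5.06 CPM and then 7.56, 9.93 and 14.9 CPM in knockouts. Its controls separated by a wide gap, and its lowest day 7 knockout library lay inside the day 5 range. Ect2, which starts the cleavage furrow, rose by 1.2 ± 0.29, and Hmmr, a spindle protein, by 1.40 ± 0.40.

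None of the 6 kinetochore genes passed from day 5 to day 7, Cenpa being at 17.9 to 28.1 and 22.1 to 29.8 CPM (0.20 ± 0.16). Neither marker passed: Top2a was at 7.38 to 13.9 and 13.2 to 24 CPM (0.78 ± 0.31, edgeR adjusted p = 0.0667) and Mki67 at 6.90 to 24.3 and 7.87 to 18.2 CPM (0.06 ± 0.31). For 6 members, Ccnb1, Aurkb, Pbk, Cenpf, E2f1 and Tyms, the arms separated: they had all day 7 libraries above all day 5 libraries, against 1.91% of genes, and 0 the reverse, against 3.63%. Without untreated knockout replicate 3 of day 7 the count of 19 became 9. E2f1, Ube2c, Uhrf1, Ect2, Mcm2, Birc5 and Pbk passed in all 12 fits that left out 1 library. Day label and library letter cannot be told apart in these lungs. Of the 8 red cell genes 4 were higher at day 7, among them Hbb-bs by 1.55 ± 0.24 and Slc4a1 by 1.27, and their summed level was 3458 to 9584 CPM at day 5 and 6191 to 19414 CPM at day 7. Other markers moved as well: 4 of 6 B cell genes and 2 of 6 T cell genes were lower, and 3 of 6 alveolar type 2, 2 of 6 fibroblast and 3 of 6 heart muscle genes were higher. Also higher were 1 of 5 club, 1 of 6 macrophage, 1 of 6 endothelial and 1 of 6 basal cell genes, and 1 of 4 tested thymocyte genes was lower. No tested neutrophil or multiciliated gene passed. Club cell sums were 9686 to 14112 CPM at day 5 and 13521 to 22369 CPM at day 7. Summed levels from day 5 to day 7 were 247 to 539 and then 192 to 247 CPM for B cells, and 6735 to 16489 and then 11028 to 26378 CPM for alveolar type 2 cells. For fibroblasts they were 2983 to 4701 and then 4526 to 6177 CPM. The part of these markers in the rise was not tested.

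Over the whole span from day 2 to day 7, untreated lungs were higher for 3 members and lower for 0. Of all genes 6.06% passed as higher, 7.7% as lower and 13.8% in either direction. The 3 were E2f1 (0.75 ± 0.20, edgeR adjusted p = 0.0121), Mcm2 (0.60 ± 0.20, edgeR adjusted p = 0.0441) and Cdc6 (0.72 ± 0.24, edgeR adjusted p = 0.0474). Cdc6, a loader of the helicase, was at 2.27 to 3.21 CPM at day 2 and 3.31 to 7.03 CPM at day 7, the only member without overlap, against 1.41% of genes higher; 0 members were lower without overlap, against 2.42%. S phase members were above 0 in 17 of 21 (median 0.35) and mitosis members in 20 of 38 (median 0.02). The count was 1 without untreated day 2 control replicate 1, 1 without untreated day 2 knockout replicate 1 and 1 without untreated day 7 control replicate 1. It was 5 without untreated day 7 knockout replicate 1 and 0 without untreated day 7 knockout replicate 3.

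**Figure D4:**
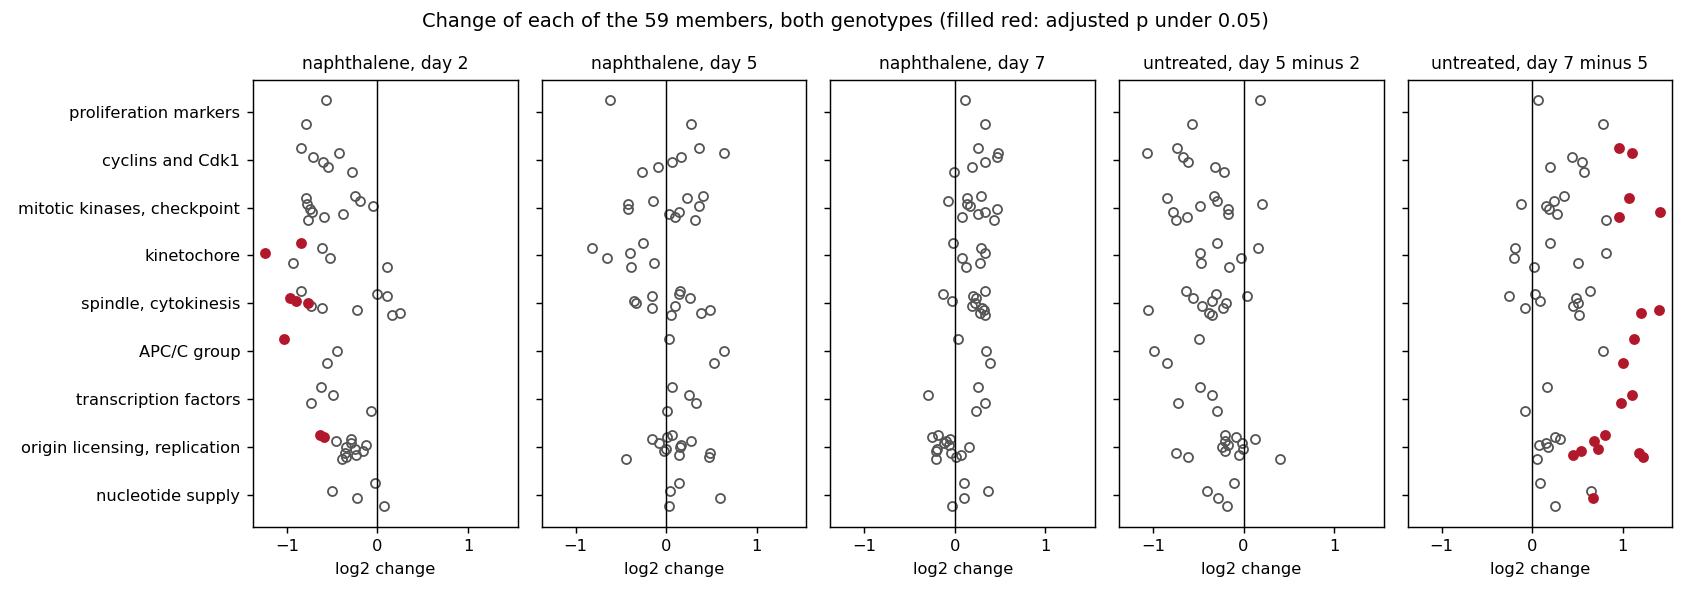
Log2 change of each of the 59 members (horizontal axis), in rows by 9 roles, for naphthalene against untreated at days 2, 5 and 7 and for untreated lungs from day 2 to 5 and day 5 to 7; filled red points have an edgeR adjusted p under 0.05. Red points lie left of 0 at day 2 after naphthalene (8) and right of 0 from day 5 to day 7 in untreated lungs (19), and there are 0 in the other panels.

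The naphthalene effect itself was compared between days, each being treated minus untreated at its own day label, so that untreated lungs enter every term. The effect at day 5 minus that at day 2 was above 0 for 51 of 59 members, with a median of 0.55. With edgeR 0 passed, 18 had an unadjusted p under 0.05 and DESeq2 called 0; of all genes 0.451% passed as higher, 0.218% as lower and 0.67% in all. Ube2c (1.06 ± 0.34, edgeR adjusted p = 0.139) and Tyms (0.82 ± 0.28, edgeR adjusted p = 0.167) were among the smallest p values. The effect at day 7 minus that at day 2 was above 0 for 56, with a median of 0.64, and for 37 of 38 mitosis members. With edgeR 0 passed, 23 had an unadjusted p under 0.05 and DESeq2 called 0; of all genes 0.461% passed as higher, 0.553% as lower and 1.01% in all. Cenpa had 0.83 ± 0.24 (edgeR adjusted p = 0.0974). Without untreated day 2 knockout replicate 1, edgeR called 1 in each of these 2 comparisons, and without treated day 7 knockout replicate 1 it called 2 in the latter. From day 5 to day 7 the effect changed by a median of 0.05, 0 members passed with edgeR, 1 had an unadjusted p under 0.05, DESeq2 called 0, and 0% of all genes passed. The tests therefore called the drop at day 2 itself but no member's change in effect between days.

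Genes of the cycle outside the 59 were examined in 4 further lists. At day 2 after naphthalene, 4 of 19 tested S phase genes were lower and 0 higher, namely Rfc3, Dut, Dtl and E2f7. Rfc3, a clamp loader subunit, was at 7.88 to 10.2 CPM untreated and 5.50 to 7.87 CPM treated (-0.47 ± 0.13, edgeR adjusted p = 0.0133). Slbp, which processes histone messages, was at 30.04 to 46.6 and 22.8 to 34.3 CPM and did not pass. Of 24 further mitosis genes 3 were lower (Ncaph, Iqgap3 and Aspm), 0 higher and 23 below 0. The smallest p was that of Ncaph, a condensin subunit, at 25.1 to 32.9 CPM untreated and 14.4 to 20.1 CPM treated without overlap (-0.82 ± 0.12, edgeR adjusted p = 1.24e-05). Of 9 G1 genes 2 were lower, Mycn (-0.63, edgeR adjusted p = 0.00849) and Cdc25a (-0.42, edgeR adjusted p = 0.0198). Ccnd3, a D-type cyclin of G1, was at 139 to 293 and 143 to 209 CPM and did not pass.

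The inhibitors of the cycle split at day 2. Cdkn1a, the p21 inhibitor that p53 induces after damage, was at 49.4 to 172 CPM (median 107) untreated and 140 to 380 CPM (median 332) treated, with overlap (1.35 ± 0.35, edgeR adjusted p = 0.0108). Cdkn2c, the p18 inhibitor of CDK4 and CDK6, was at 35.7 to 68.4 CPM (median 62.1) and 21.2 to 38.1 CPM (median 24.7) and fell by 1.01 ± 0.17 (edgeR adjusted p = 0.000117). One further inhibitor was lower at a very low level, and the other 8 of the 11 genes of this list (inhibitors, pocket proteins and E2f4) did not pass.

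At days 5 and 7 after naphthalene 1 mitotic gene outside the 59 passed at both days. Nek2, a kinase that separates centrosomes, was at 6.12 to 8.07 CPM untreated and 13.5 to 16.1 CPM treated at day 5 (1.09 ± 0.16, edgeR adjusted p = 3.61e-05). At day 7 it was at 5.40 to 7.67 CPM untreated and 10.3 to 17.5 CPM treated (1.07 ± 0.16, edgeR adjusted p = 0.00054). Its treated and untreated libraries overlapped at neither day. At day 5 Gtse1 was also higher (0.87 ± 0.25, edgeR adjusted p = 0.0332), Ncaph lower (-0.43, edgeR adjusted p = 0.0285) and Cdk2 lower (-0.36 ± 0.11, edgeR adjusted p = 0.0448), and at day 7 Nek2 was the 1 gene of the 4 lists that passed.

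In untreated lungs from day 5 to day 7, 3 of the 19 S phase genes were higher, Dut, Dtl and Pola1, a DNA polymerase subunit, the last by 0.73 ± 0.16. Of the 24 mitosis genes 4 were higher (Kif18b, Gtse1, Iqgap3 and Cep55) and 1 lower: Kif18b, a spindle motor, rose from 1.28 to 2.64 CPM to 2.81 to 7.21 CPM, whereas Ncaph fell, from 21.1 to 29.2 CPM to 12.4 to 18 CPM (edgeR adjusted p = 0.00062). Of the 9 G1 genes 3 were higher, Cdk4 (0.54), Ccnd3 (0.87) and Ccnd1 (1.00). Of the 11 genes of the list of inhibitors, pocket proteins and E2f4, 3 were higher, among them Cdkn2d (0.57) and Cdkn2c (0.63).

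Between genotypes 0 of the 59 genes passed in any comparison, and 0% of all genes tested did. Averaged over the 3 day labels in untreated lungs, the knockout minus control change had a median of -0.04 (36 below 0), 0 members had an unadjusted p under 0.05 and DESeq2 called 0. The smallest p values were those of Cdt1 (-0.28 ± 0.15, edgeR adjusted p = 0.581), Plk1, the polo-like kinase of mitosis (-0.34 ± 0.19, edgeR adjusted p = 0.591), and Birc5 (-0.29 ± 0.21, edgeR adjusted p = 0.637). After naphthalene the median was 0.17 (54 above 0), 2 had an unadjusted p under 0.05 and DESeq2 called 0, with Bub1 (0.55 ± 0.23), Cdc6 (0.43 ± 0.21) and Kif23 (0.29 ± 0.18) first, each at an edgeR adjusted p of 0.833. These treated values contain knockout replicate 2 of day 7. The genotype difference in the naphthalene effect was above 0 for 56 of 59, with a median of 0.19; 0 had an unadjusted p under 0.05 and DESeq2 called 0. Cdt1 (0.39 ± 0.21), Cdca8, of the chromosomal passenger complex (0.64 ± 0.35), and Birc5 (0.55 ± 0.31) had the smallest p values, each with an edgeR adjusted p of 1.

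The red cell genes and the cell cycle genes were also set side by side over all libraries. The summed level of the 8 red cell genes ran from 1409 CPM in a treated control library of day 2 to 19414 CPM in an untreated library of day 7. The libraries of day 2 after naphthalene had the lowest red cell sums, with E2f1 at 7.09 to 13.2 and Ube2c at 6.21 to 9.80 CPM, and those of untreated day 7 had E2f1 at 17.3 to 28.7 and Ube2c at 15.1 to 31.3 CPM. Sums of untreated day 5 and day 7 libraries overlapped, with a control of day 5 at 9584 CPM and a knockout of day 7 at 6191 CPM. E2f1 was at 13.2 CPM in treated knockout replicate 1 of day 7, whose sum was 12331 CPM. Top2a did not follow the order of red cell sums, since the libraries with its 2 highest values, 51.0 and 33.6 CPM, had sums of 7484 and 11524 CPM. The libraries share treatment, day label and letter along this axis, so the relation is given as a description.

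**Figure D5:**
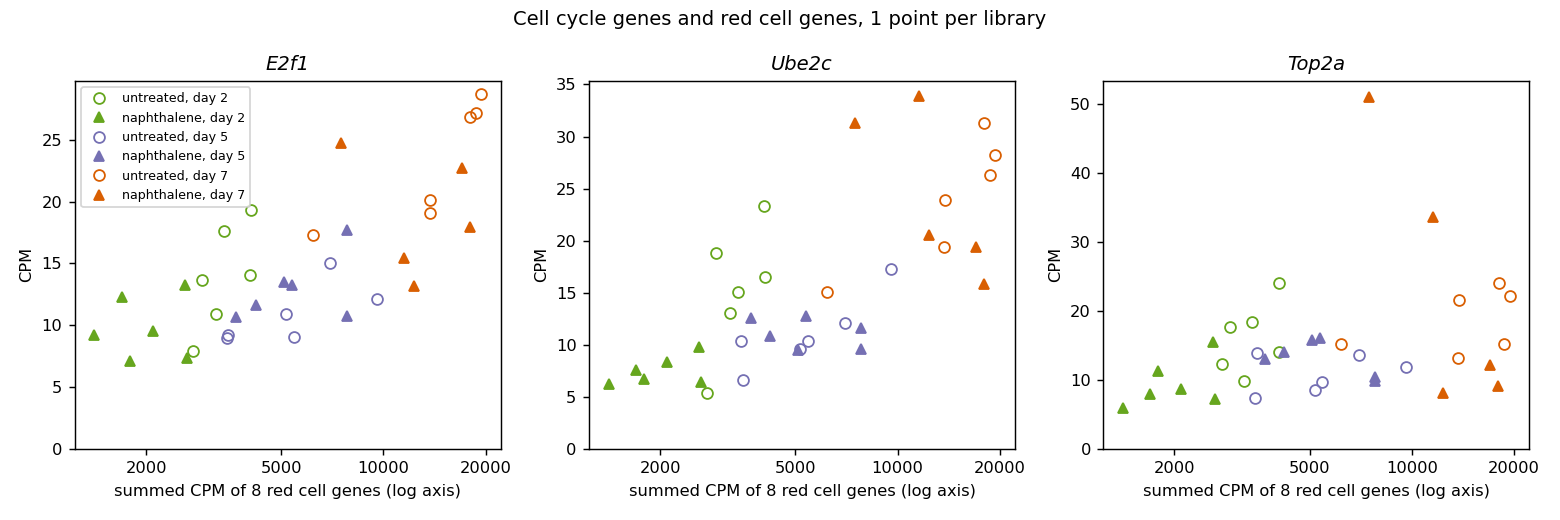
CPM of E2f1, Ube2c and Top2a (vertical axes) against the summed CPM of 8 red cell genes (horizontal axis, log scale), 1 point per library, coloured by treatment and day label. Libraries of day 2 after naphthalene sit at the left for each gene, and the 2 highest Top2a points, from day 7 after naphthalene, lie at red cell sums of 7484 and 11524 CPM.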

How the data were processed

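RNA came from an aliquot of homogenized whole lung extracted with Trizol, and libraries from the Watchmaker Genomics mRNA kit, per the labels' protocols. The values are the authors' deposited raw counts per gene, whole numbers whose totals differ between libraries. The submitters' processing notes name GRCm39 and DESeq2 without a role; the aligner, the counting program and its annotation: not given in the sources used here. No 2 columns were identical.

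In R 4.3.3, edgeR 4.0.16 was used with filterByExpr over the 12 groups (20606 genes kept of 39417 with any read), TMM factors and 1 robust quasi-likelihood fit of the group means (23 residual degrees of freedom; common biological coefficient of variation 0.222). Contrasts were tested two-sided with the quasi-likelihood F-test and Benjamini-Hochberg adjustment over all genes in each of 18 comparisons, at 0.05. CPM used TMM-scaled totals. DESeq2 1.42.0 and limma 3.58.1 were installed; DESeq2 served as an alternative. CPM are not divided by gene length, so levels are compared within a gene only. Same-numbered libraries of different groups did not deviate together (correlation -0.597 to 0.500, median 0.0016, over 187 pairs; -0.574 to 0.615 for different numbers), so numbers were not used as pairs.

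Members were grouped by role, and 17 other lists were used. Members and lists were chosen with earlier results of these data known. Values per library, or ranges over libraries, are given for each role's member with the highest mean CPM and with the smallest p over the 3 naphthalene effects. They are also given for the 3 smallest p of each naphthalene effect and of untreated day 7 against day 2. For the 3 smallest p of each genotype comparison log2 changes are given. Further members passed the test or were chosen after their values were seen. In the other cycle lists the gene with the highest mean CPM and that with the smallest p follow the rule, and the others named were called. On counts simulated for the day 2 comparison over 20291 genes, the test found 80.6% of 93 genes changed 2-fold and 100% of 107 genes changed 4-fold, and 8 of its 190 calls were false. The changed genes were drawn only from those above a floor of mean reads. The counts were simulated without the quasi-likelihood spread of single genes. The shares found therefore need not hold for sparse or widely spread members. Alternatives were DESeq2, its size factors in edgeR, no filter on low counts, a fit of the compared groups only, a replicate block and leaving out each library.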

Additional observations from a re-analysis of the deposited data

How the results depend on the processing

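Shares of all genes called are given above for the main fit only. The counts of called members below therefore do not show whether calls rose more among members than among all genes. These counts changed with the settings as follows. Without a filter on low counts they were 22 at day 2 after naphthalene in both genotypes, 4 at day 5, 10 in controls and 3 in knockouts at day 2, 1 in controls at day 5, 8 and 6 in untreated lungs from day 2 to 5 and from day 2 to 7, and 8 and 9 for the change in the naphthalene effect from day 2 to 5 and from day 2 to 7; the cause was not tested. With DESeq2 they were 1 in both genotypes at day 5, 3 in controls and 1 in knockouts at day 2 and 5 in untreated lungs from day 2 to 7. A fit of the compared groups alone leaves out, for day 2, the libraries of days 5 and 7. Its counts were 13 in both genotypes and 5 in controls at day 2. With the replicate number as a block they were 8 at day 2 in both genotypes, 19 and 2 in untreated lungs from day 5 to 7 and from day 2 to 7, 1 in controls at day 2 and 0 elsewhere. Leaving out 1 library gave 3 to 14 at day 2, 0 to 2 in controls and 0 to 2 in knockouts at day 2, 0 to 3 at day 5, 0 to 1 and 0 to 2 for the effect from day 2 to 5 and from day 2 to 7, 9 to 21 and 0 to 5 in untreated lungs from day 5 to 7 and from day 2 to 7, and 0 elsewhere. The sign turned for Rrm1 at day 2 (0.03 without untreated control replicate 1, 0.059 without untreated knockout replicate 1, 0.0039 without treated knockout replicate 2, within a range of -0.084 to 0.059) and for Ccnb2 at day 7 (-0.43 without treated knockout replicate 2, within a range to 0.87). The fewest reads in a library were 4 for Ndc80 and 7 for Ttk. Neither passed in the main fit, and the part of depth in this was not tested.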

Other observations

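A small group of genes that act where division is left for the making of cilia was also measured. Of 7 genes of multiciliated cells, 1 was higher and 4 lower at day 2 after naphthalene. Mcidas, the regulator that starts centriole amplification in postmitotic airway cells, was at 0.985 to 2.29 CPM in the 6 untreated libraries and 0 to 0.398 CPM in the 6 treated ones (-2.86 ± 0.40 on the log2 scale, edgeR adjusted p = 6.7e-06). Gmnc, which acts before it, was at 0.582 to 1.86 and 0.0634 to 0.425 CPM (-2.56 ± 0.38, edgeR adjusted p = 1.54e-05). Ccno, a cyclin-like protein of centriole amplification, was at 2.39 to 6.40 and 2.23 to 4.25 CPM, with overlap (-0.74 ± 0.20, edgeR adjusted p = 0.0125), and Myb, a factor that acts with them, also passed as lower (-0.64 ± 0.16, edgeR adjusted p = 0.00864). Foxj1, the factor of cilium assembly, was higher, at 18 to 51.3 CPM untreated and 80.2 to 150 CPM treated (1.71 ± 0.27, edgeR adjusted p = 3.33e-05).

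At day 5 Mcidas, Ccno and Foxj1 were higher than in untreated lungs, and Gmnc was not (-0.35 ± 0.32, edgeR adjusted p = 0.508). Mcidas was at 0.533 to 1.30 CPM untreated and 1.96 to 4.30 CPM treated (1.79 ± 0.32, edgeR adjusted p = 0.000663), and Ccno at 2.47 to 4.27 and 5.17 to 10.3 CPM (1.27 ± 0.19, edgeR adjusted p = 7.62e-05), neither with overlap. The naphthalene effect differed between day 5 and day 2 for Mcidas (4.64 ± 0.51, edgeR adjusted p = 2.11e-06), Ccno (2.01 ± 0.28, edgeR adjusted p = 0.000103) and Gmnc (2.21 ± 0.51, edgeR adjusted p = 0.0302). At day 7 none of the 7 passed with edgeR and 2 had an unadjusted p under 0.05. Mcidas and Gmnc rest on few reads, and at days 2 and 5 treatment and library letter cannot be told apart.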
